A study of Homo sapiens with 4 samples.

Results

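The 10 transcription factor genes that set or carry out the squamous epithelial program were followed in SAS cells with the HAI-1 gene silenced: TP63, SOX2, GRHL1, GRHL2, GRHL3, OVOL1, ZNF750, KLF4, ELF3 and BNC1. They were taken as every array row whose deposited gene symbol equals 1 of these names, which gave 24 probe sets for 10 of the 19891 genes named on the array. KLF4 fell, GRHL1 and GRHL2 rose, ZNF750 was detected in the knockdown cells alone, and TP63, ELF3 and BNC1 did not pass the test.

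In stratified epithelia p63, the product of TP63, is the master regulator of the basal layer and occurs in a long TA form and a shorter ΔN form made from separate promoters. As cells leave the basal layer, KLF4, ZNF750, GRHL3 and OVOL1 take part in barrier formation and late differentiation, and p63 is known to activate ZNF750. Grainyhead-like factors keep junction genes active in many epithelia, SOX2 is a partner of p63 in squamous carcinomas, ELF3 is an epithelial ETS factor, and BNC1 (basonuclin 1) is a zinc finger protein of basal keratinocytes.

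SAS is a line from a human oral squamous cell carcinoma, and HAI-1, encoded by SPINT1, is an inhibitor, anchored in the cell membrane, of serine proteases such as matriptase. Both groups were infected with a retrovirus built on pSINsi-hU6, which makes a short hairpin RNA, and were grown in RPMI1640 with serum. In the knockdown group the hairpin was aimed at SPINT1 while the control hairpin had a scrambled sequence, with 2 arrays per group. The labels do not say whether infected cells were cloned or pooled, nor whether each array had a culture of its own, and the p-values rest on the spread between these arrays, which may be technical. Each group stands for 1 hairpin sequence, so loss of HAI-1 and any other effect of that hairpin cannot be told apart. The hairpin sequences define the groups and are shown for that reason, with capitals at the 12 of 21 positions where they differ. Their base composition is the same, with 6 A, 3 C, 9 G and 3 T each.
SPINT1 target, knockdown group: gggCAggCATAGAcTTgaAgG
scrambled form, control group: gggACggAGATTTcACgaGgA

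The values are MAS5 signals on a linear scale, 1 per probe set and array, with a call of present, marginal or absent for each. Between 45.6% and 48.1% of probe sets were called present per array, and Pearson's r over probe sets (not independent of one another) was 0.983 within the knockdown group and 0.986 within the control group. SPINT1 read 135 and 282 on the knockdown arrays and 1451 and 1445 on the control arrays (log2 change -2.79, SE 0.25, adjusted p = 5.7e-05). Its second probe set, called present on no array, had a log2 change of -0.11. Of 17 squamous markers 15 were called present on at least 1 array and 12 on all 4, while KRT13 and KRT16 were called present on none. The keratins of simple epithelium KRT7, KRT8, KRT18 and KRT19 were called present on all 4 arrays. Of fibroblast markers 3 of 8 were called present on any array and none on all 4, of leukocyte markers 3 of 6, of endothelial markers 2 of 4 and of melanocyte markers 0 of 4. The endothelial sum was 736 and 1177 on the knockdown arrays against 565 and 538 on the control arrays. Within it CDH5 was higher by 1.93-fold (adjusted p = 0.023). PECAM1 read 148 and 72.9 against 121 and 120 (log2 change -0.18) and did not pass, while VWF and KDR were called present on no array. The leukocyte sums overlapped, at 916 and 858 on the knockdown arrays against 926 and 727 on the control arrays. The leukocyte marker LAPTM5 read 139 and 111 against 29.1 and 52.7, reaching the filter through its knockdown arrays alone. It was called higher (adjusted p = 0.029), which for that reason is given as a description. CD14, called present on all 4 arrays, read 620 and 569 against 757 and 607 (log2 change -0.19). Neither CD14 nor ITGAM (log2 change 0.42) passed, and ITGAM too reached the filter through its knockdown arrays alone. Of the 15 squamous markers tested, 4 were called higher and 2 lower, 40% against 19.4% of all genes. The rises were KRT14 (16.7-fold), KRT5 (2.62-fold), TRIM29 (2.21-fold) and PKP1. The falls were DSG3 (2.03-fold, adjusted p = 0.00075) and SFN (1.34-fold). PKP1 is 1 of 2 that reached the filter through their knockdown arrays alone, so the count is not support for a direction. Markers named here were chosen after their values were seen. The part of other cell types in any result was not tested. In such bulk samples fewer cells of a type and less RNA per cell cannot be told apart.

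Of the 24 probe sets, 16 had a mean signal at or above the median of the array (58.9) and were tested, 2 rose, 2 fell and 12 did not pass. Over all probe sets tested 15.6% were called by limma's moderated test at an adjusted p under 0.05, with 7.33% higher and 8.32% lower. Counted by gene, with the brightest probe set of each, 7 of the 10 were tested, 2 rose and 1 fell, against 19.4% of all genes called (8.79% higher and 10.6% lower). Knockdown and control arrays were apart for 10 of the 16 tested probe sets, near the background of 57.8% of all probe sets tested. The median log2 change of the 7 genes was 0.09, and that of all genes tested was 0.02. With every array centred on its median over all probe sets, the share of calls that were higher moved from 46.8% to 35.1% over the whole table, while the member calls stayed at 2 higher and 2 lower. The number of arrays limits the precision throughout, and the smallest two-sided p that an exact permutation of 4 arrays allows is 0.333.

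**Figure D1:**
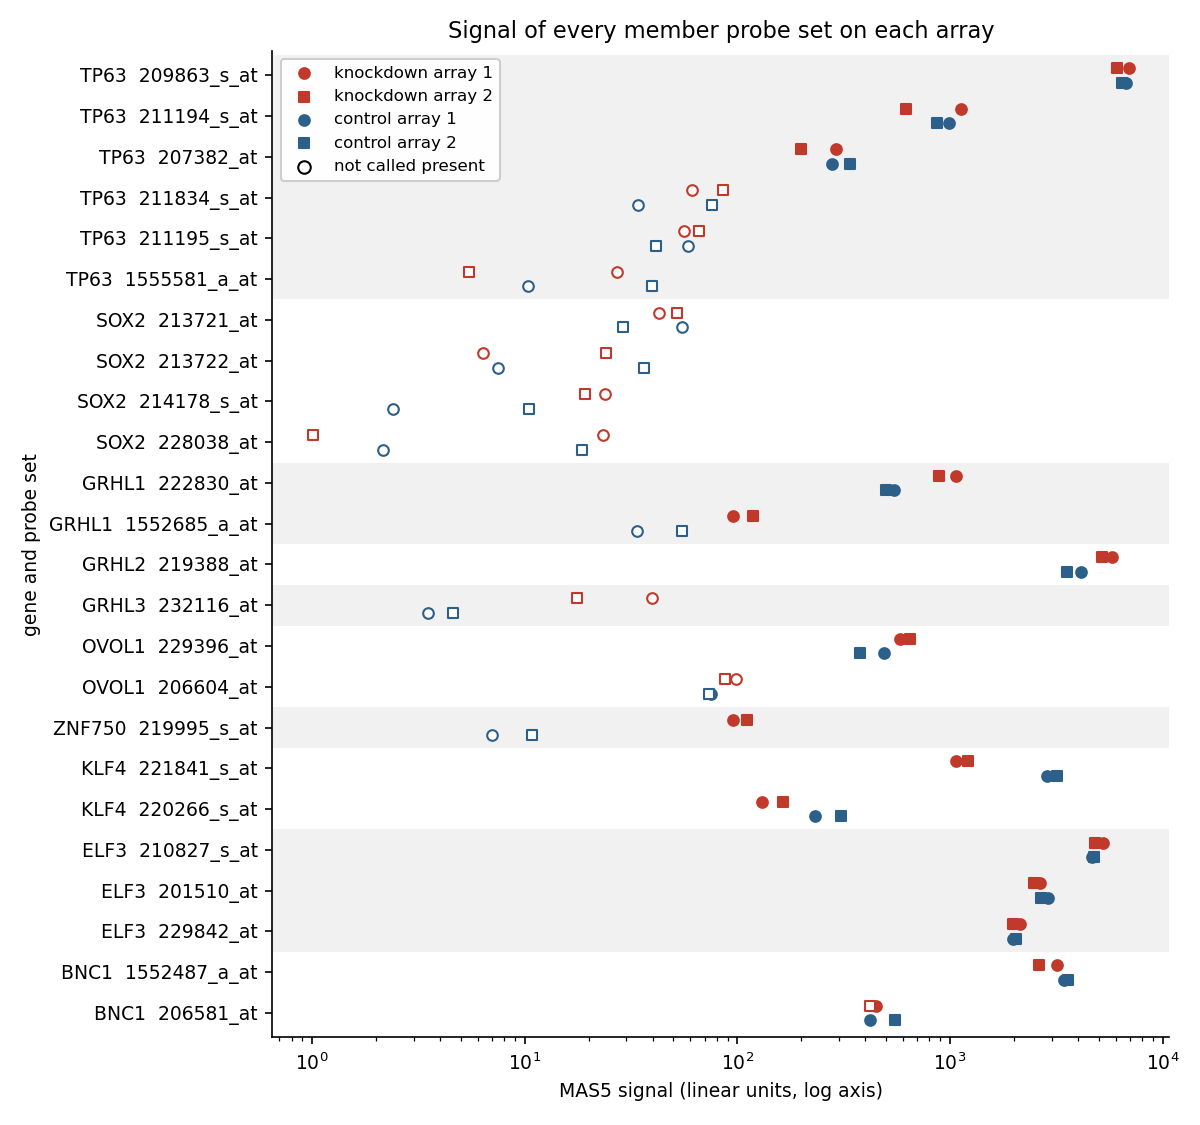
MAS5 signal (log axis, linear units) of each of the 24 member probe sets on the 4 arrays, red for knockdown and blue for control, circles for array 1 and squares for array 2, open where not called present. KLF4 signals lie lower in red (1061 and 1213 against 2869 and 3176), ZNF750 is filled in red alone, and every SOX2 point is open.

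KLF4 encodes a zinc finger factor needed for the skin barrier, and it was the member whose call held under every setting tried. Its brightest probe set (221841_s_at, aligned to chromosome 9, 109286955 to 109290527, minus strand, on a build that the sources used here do not name) read 1061 and 1213 in knockdown cells and 2869 and 3176 in control cells. Both knockdown arrays lay far below both control arrays. The means were 1137 ± 107 and 3023 ± 217 (SD, n = 2 each), a fall of 2.64-fold (log2 change -1.40, SE 0.12, adjusted p = 3.4e-05). Leaving out any 1 array gave log2 changes between -1.49 and -1.30. The second KLF4 probe set (220266_s_at) read 131 and 165 against 231 and 308, again without overlap, a smaller fall of 1.74-fold (log2 change -0.80, SE 0.23, adjusted p = 0.042). That call did not hold without knockdown array 1 (adjusted p = 0.11), control array 1 (0.064) or control array 2 (0.31), with no filter (0.13) or with no variance trend (0.096). The fall of KLF4 thus rests on its brighter probe set, and the smaller value of the dimmer was on the same side.

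The promoter of KLF4 is shown because both probe sets were lower. It spans 250 bases before to 50 after the gene's start in RefSeq (GRCh38.p14, chr9:107489720-107490019, minus strand), is 69% G and C, and is written 5′ to 3′ with the letters TATAA, found on both strands and overlapping, in capitals.
KLF4 promoter: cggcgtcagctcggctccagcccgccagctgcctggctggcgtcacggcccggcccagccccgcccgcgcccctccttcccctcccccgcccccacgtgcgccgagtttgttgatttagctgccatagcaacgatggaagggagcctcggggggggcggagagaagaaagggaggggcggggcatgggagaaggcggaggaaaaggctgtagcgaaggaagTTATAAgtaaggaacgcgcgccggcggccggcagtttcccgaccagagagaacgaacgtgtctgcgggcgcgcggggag

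The grainyhead-like factors are a family of 3 related DNA-binding proteins. GRHL1, known in mice for its role in hair anchoring and desmosomal cadherin expression, read 1069.9 and 882 in knockdown cells and 544 and 501 in control cells on its brightest probe set (222830_at, chromosome 2, 10009304 to 10059910, plus strand, same unnamed build). The groups did not overlap. The means were 976 ± 133 and 522 ± 29.8 (SD, n = 2 each), a rise of 1.84-fold (log2 change 0.88, SE 0.14, adjusted p = 0.0022). The adjusted p stayed under the threshold without any 1 array, between 0.0021 and 0.013, and was 0.0505 without the variance trend. The second GRHL1 probe set (1552685_a_at) was called present on both knockdown arrays, at 94.9 and 119, and on no control array, at 33.6 and 54.6. Its signals were 2.06-fold higher in knockdown cells and it did not pass (log2 change 1.05, 95% interval 0.26 to 1.84, SE 0.36, adjusted p = 0.075). It reached the signal filter through its knockdown arrays alone, so its difference is given as a description.

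GRHL2, which in epithelial cells sustains CDH1 and claudin expression, has 1 probe set (219388_at), called present on all 4 arrays. It read 5754 and 5204 in knockdown cells and 4132 and 3565 in control cells. The lowest knockdown value lay above the highest control value. The rise was 1.42-fold, from 3848 ± 401 to 5479 ± 389 (SD, n = 2 each, log2 change 0.51, SE 0.11, adjusted p = 0.012). It missed the threshold without control array 2 (log2 change 0.40, adjusted p = 0.17), with no filter (0.059) and with no variance trend (0.13).

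GRHL3, which in mice is required for epidermal barrier formation, was called present on no array. Its single probe set (232116_at) read 39.5 and 17.6 against 3.50 and 4.58, and it lay under the filter. With no filter its log2 change of 1.11 had an adjusted p of 0.18, and no fold is given since both groups were below detection.

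The promoter of GRHL1 is shown because its brightest probe set rose (RefSeq, GRCh38.p14, chr2:9951443-9951742, plus strand). It is 79.7% G and C and holds the letters CCAAT in 2 places on the plus strand, in capitals.
GRHL1 promoter: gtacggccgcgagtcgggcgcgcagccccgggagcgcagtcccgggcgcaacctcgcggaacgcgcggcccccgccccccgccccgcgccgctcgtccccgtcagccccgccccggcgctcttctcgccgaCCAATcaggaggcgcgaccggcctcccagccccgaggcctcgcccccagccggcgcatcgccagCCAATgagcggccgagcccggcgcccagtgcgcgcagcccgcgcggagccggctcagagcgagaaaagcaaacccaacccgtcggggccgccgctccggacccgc
Of the 10 genes 7 had an entry in the RefSeq promoter table, and GRHL2, OVOL1 and ZNF750 did not. Both strands of these 300-base windows were searched for letters bound by the factors: AACCGGTT for grainyhead-like factors, the p53 family motif (a pair of CATG cores), ACAAAG for SOX, GGGTGTG for KLF and CCGTTA for OVOL. The only match among the 7 was ACAAAG in the SOX2 promoter, at position -220 from the start. In 35116 promoters of the same length these letters occur in 0.134%, 0.373%, 16.1%, 7.56% and 3.07%, in that order. The letters CCAAT and TATAA, added after the sequences had been seen, occur in 34.6% and 20.4% of promoters and do not overlap each other in the windows printed. A match is a description of letters and not of binding.

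ZNF750 encodes a zinc finger factor of late epidermal differentiation that acts together with KLF4 on differentiation genes. Its only probe set (219995_s_at, chromosome 17, 78380599 to 78391188, minus strand, same unnamed build) read 94.9 and 111 in knockdown cells and 7.04 and 10.8 in control cells. It was called present on both knockdown arrays (detection p 0.0012 and 0.0029) and on no control array (0.22 and 0.53). It was 4.39-fold higher in knockdown cells on log2(signal + 16), with each control value raised to the dimmest present call of its array. That value is not a lower confidence limit. Its mean over the 4 arrays, 55.9, lay just under the filter at 58.9, so it was not tested in the main fit. With no filter its log2 change was 2.25, with an adjusted p of 0.036.

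OVOL1, a zinc finger repressor that helps keratinocytes leave the cell cycle, did not pass. Its brightest probe set (229396_at) read 581 and 645 in knockdown cells and 488 and 376 in control cells, without overlap (log2 change 0.50, 95% interval 0.13 to 0.87, adjusted p = 0.069). Without 1 array the adjusted p lay between 0.064 and 0.43. The dimmer probe set (206604_at), called present on 1 control array alone, read 98.2 and 87.0 against 74.9 and 73.1 (log2 change 0.27, adjusted p = 0.61).

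**Figure D2:**
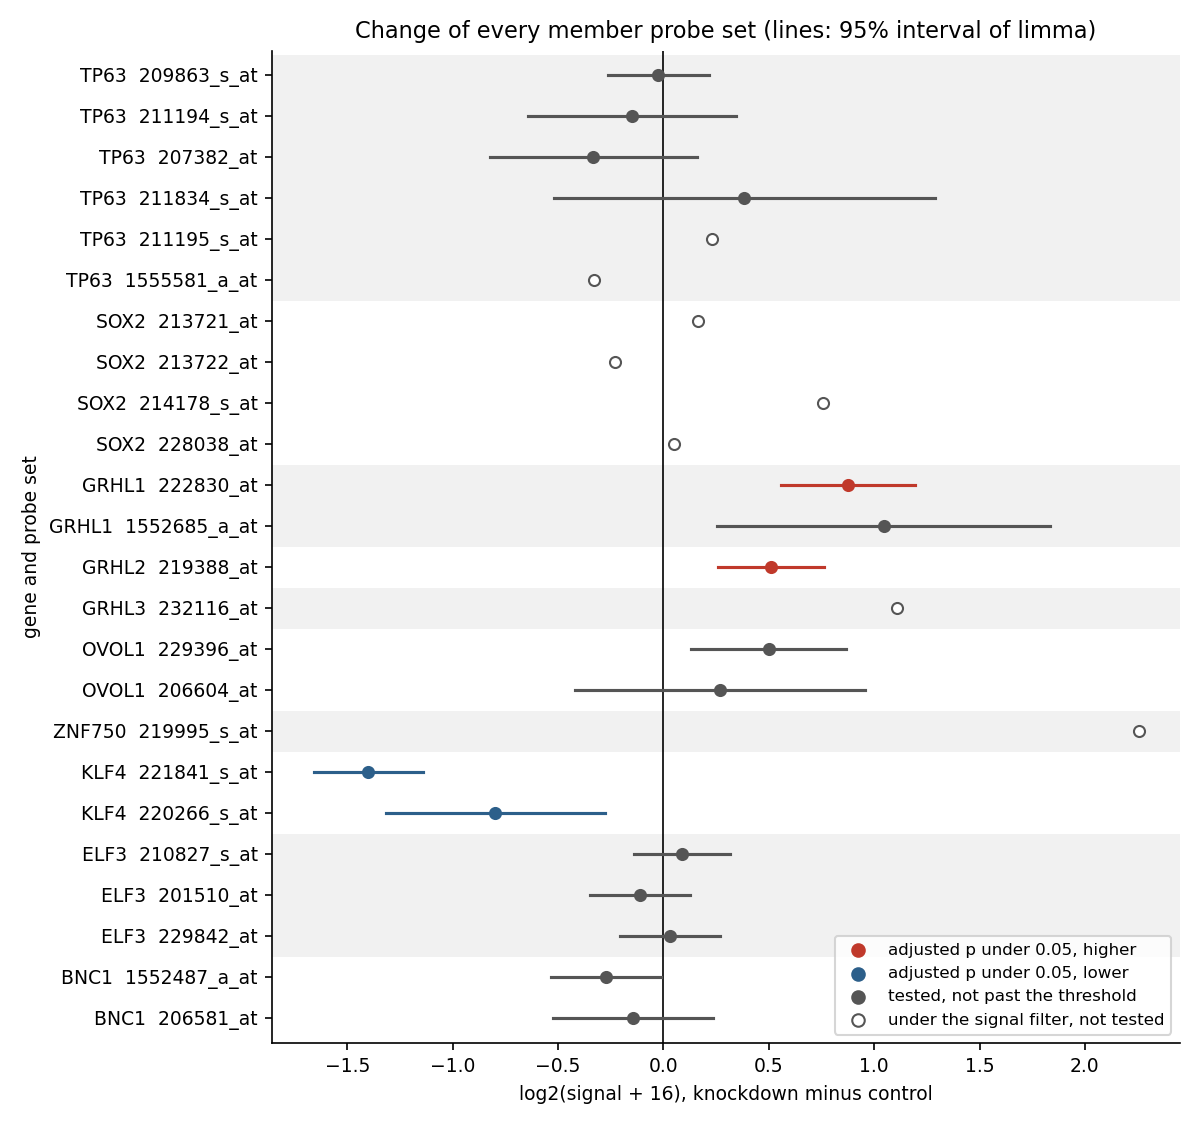
Change of each member probe set, log2(signal + 16) in knockdown minus control cells, with the 95% interval of limma's fit on 2 arrays per group. Red marks the calls of GRHL1 (0.88) and GRHL2 (0.51), blue the KLF4 calls (-1.40 and -0.80), grey those that did not pass, and open points those under the signal filter.

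TP63 is represented by 6 probe sets, 3 of them called present on all 4 arrays and 3 on none. The brightest (209863_s_at, chromosome 3, 190990159 to 191097749, plus strand, same unnamed build) read 6916 and 6086 in knockdown cells and 6722 and 6468 in control cells. The control values lay between the knockdown values. The log2 change was -0.02, with a 95% interval from -0.26 to 0.22 (adjusted p = 0.91). Probe set 211194_s_at read 1120.0 and 618 against 993 and 864 (log2 change -0.15, interval -0.64 to 0.34, adjusted p = 0.70). Its knockdown arrays stood at either end of the range, and its log2 change was -0.57 without knockdown array 1 (adjusted p = 0.032) and 0.27 without knockdown array 2.

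The TP63 probe sets fall into 2 sets by the start of their alignments. Those of 207382_at and 211195_s_at begin at 190831970, and the other 4 begin 158 kb further along the gene. A start at 190831970 takes in the upstream exons of the TA form, but where the individual probes lie was not analysed here. Probe set 207382_at read 290.0 and 198 in knockdown and 278 and 338 in control cells (log2 change -0.33, interval -0.82 to 0.16, adjusted p = 0.36), and 211195_s_at was called present on no array, with signals between 41.6 and 66.0. No difference in TP63 was detectable on any of its 4 tested probe sets with all arrays in the fit, and apart from the brightest their intervals reach changes of the size of GRHL2 in at least 1 direction.

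SOX2 was not detected. None of its 4 probe sets was called present on any array, and all 4 lay under the filter, with signals between 1.01 and 54.9. The brightest (213721_at) read 42.7 and 52.2 in knockdown cells and 54.9 and 29.1 in control cells. With no filter the adjusted p of the 4 lay between 0.32 and 0.98, so no statement on a difference is made.

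ELF3 was called present on all 4 arrays by each of its 3 probe sets. The brightest (210827_s_at) read 5235 and 4788 in knockdown cells and 4654 and 4771 in control cells, a log2 change of 0.09 (interval -0.14 to 0.32, adjusted p = 0.62). The others had log2 changes of -0.11 (201510_at, interval -0.35 to 0.12) and 0.03 (229842_at, interval -0.21 to 0.27). The intervals of all 3 exclude a change of the size of KLF4 in either direction.

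BNC1 read 3199 and 2623 in knockdown cells and 3415 and 3587 in control cells on its brightest probe set (1552487_a_at). The knockdown values lay below the control values, but the log2 change of -0.27 (interval -0.53 to -0.01) had an adjusted p of 0.16, which became 0.022 without knockdown array 1. The other probe set (206581_at) overlapped between the groups (log2 change -0.14, adjusted p = 0.62).

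The tested probe sets of other genes within 5 Mb of each member were read beside it, and 1 gene can have several. Over all probe sets tested 7.33% rose and 8.32% fell. Near KLF4, 14 of 61 probe sets (27 genes) rose and 2 fell, with a median log2 change of 0.17, on the opposite side from KLF4 itself. Near GRHL1, 4 of 43 rose and 6 fell (median 0.09), and near GRHL2, 4 of 55 rose and 6 fell (median -0.03). Near ZNF750, 8 of 136 rose and none fell (median 0.14), while its own log2 change was 2.25. Near SOX2, 11 of 86 rose and 1 fell (median 0.20), and near TP63, 5 of 55 rose and 3 fell (median 0.05). Medians near GRHL3, OVOL1, ELF3 and BNC1 lay between -0.05 and 0.14. Medians over whole chromosomes were -0.01 for KLF4's, 0.005 for GRHL1's, 0.03 for GRHL2's, 0.08 for ZNF750's and 0.10 for that of SOX2 and TP63. P3H2, singled out after its value was seen, lies 0.195 Mb from TP63 and had a log2 change of 2.62, past the threshold.

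**Figure D3:**
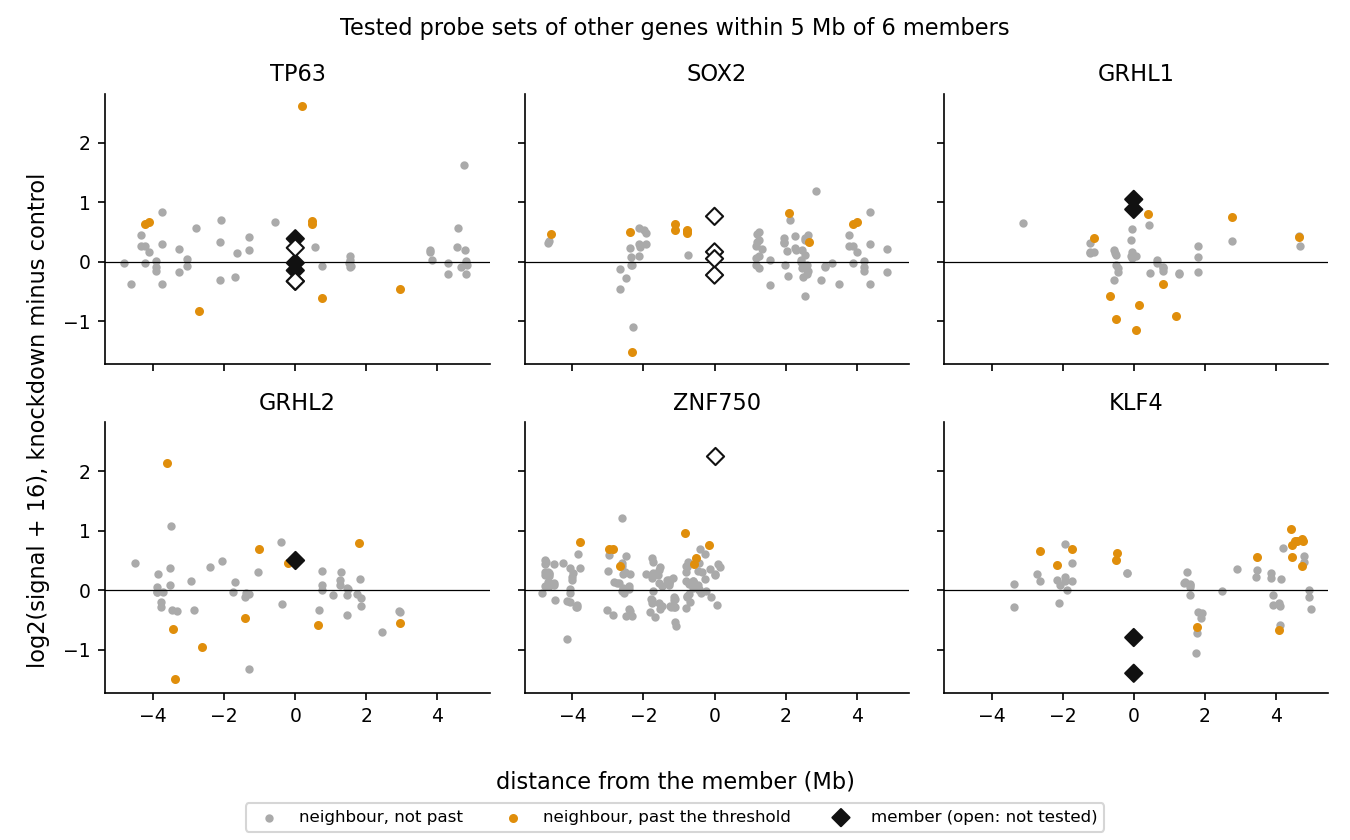
Log2 change of tested probe sets of other genes against their distance in Mb from 6 members, orange where past the threshold, with the members as black diamonds at 0 (open where not tested). The KLF4 diamonds (-1.40 and -0.80) lie below a neighbourhood whose median is 0.17, and the ZNF750 diamond (2.25) lies above all of its neighbours.

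Other regulators of squamous and epithelial cells moved in both directions. Of 30 listed, 23 were tested, 5 rose, 4 fell and 14 did not pass, with a median log2 change of 0.09. The share called was 39.1%, against 19.4% of all genes. Of the 5 rises, 1 reached the filter through its knockdown arrays alone, so neither count nor share is support for a direction. PRDM1, which encodes the repressor BLIMP1 with a role in epidermal differentiation, read 569 and 539 in knockdown cells and 88.3 and 98.1 in control cells, a rise of 5.22-fold (adjusted p = 3.3e-05). RUNX1, a Runt-domain factor, fell 1.87-fold (adjusted p = 0.00043), with means of 2147 ± 153 in control and 1139 ± 19.6 in knockdown cells (SD, n = 2 each). HR, the hairless corepressor gene, rose 1.47-fold (adjusted p = 0.014), a call lost without control array 1 (0.059) or control array 2 (0.11) or with no variance trend (0.084). Further calls, named after their values were seen, were rises of EHF and TFAP2C and falls of OVOL2, ETS1 and FOSL1. OVOL2, the paralog of OVOL1, fell 1.42-fold (adjusted p = 0.016; 0.052 without control array 1 and 0.17 without control array 2; 0.11 with no variance trend). With arrays centred on their medians over all probe sets, 4 of the list rose and 6 fell.

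Genes that p63 is known to activate were also mixed. Of 25, 24 were tested, 4 rose, 3 fell and 17 did not pass (median log2 change 0.10), a share called of 29.2% against 19.4% of all genes. The rises were the basal keratin genes KRT14 (16.7-fold, adjusted p = 9.2e-07) and KRT5 (2.62-fold, adjusted p = 0.00035), TRIM29 (2.21-fold, adjusted p = 0.00053) and the basement membrane gene FRAS1 (1.69-fold, adjusted p = 0.0011; 0.055 with no variance trend). KRT14 read 1577 and 1886 in knockdown cells and 72.7 and 106 in control cells. The brightest TP63 probe set stood at 98.6% of its control mean. The arrays do not measure p63 protein, and the cause of the KRT14 rise was not tested. The falls, named after their values were seen, were FGFBP1, the Notch ligand gene JAG2 and the 14-3-3 gene SFN, at 2.13-fold, 1.39-fold and 1.34-fold. Without knockdown array 2 the list held 5 rises and 7 falls.

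Of 20 epithelial genes known to depend on grainyhead-like factors, 18 were tested with limma: 3 rose, 0 fell and 15 did not pass. At an unadjusted p under 0.05, 4 were higher and 1 lower. The share of all genes at that unadjusted threshold is not given here, so this split is not support for a direction. The desmosomal plakin gene PPL rose 2.12-fold (adjusted p = 0.00018), with means of 1876 ± 36.1 in control and 4015 ± 549 in knockdown cells (SD, n = 2 each), and the claudin gene CLDN7 rose 1.94-fold (adjusted p = 0.0010; 0.058 with no variance trend). TGM1, which encodes the cornified envelope transglutaminase, was called present on no control array. Its signals were 2.16-fold higher in knockdown cells (95% interval of the log2 change 0.41 to 1.81, adjusted p = 0.038). It missed the threshold with no filter (0.16) and with no variance trend (0.063). Its call also did not hold without knockdown array 1, knockdown array 2 or control array 1. CDH1, which encodes E-cadherin, did not pass (log2 change 0.33, adjusted p = 0.078; 0.019 without knockdown array 2). The share called, 16.7%, was near the 19.4% of all genes.

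Of 32 terminal differentiation genes 31 were found, 16 were tested, 5 rose, 1 fell and 10 did not pass, with a median log2 change of 0.50 and a share called of 37.5% (19.4% of all genes). Of those tested, 3 reached the filter through 1 group alone, so neither count nor median is support for a direction. Filaggrin (FLG), called present on no control array, read 809.8 and 709 against 21.0 and 36.1 and was 17.6-fold higher on log2(signal + 16). It is 1 of the 3 genes that reached the filter through their knockdown arrays, so its difference is given as a description. S100A7, an antimicrobial gene without a present call in the control group, was 5.71-fold higher (adjusted p = 0.00052). The 95% interval of its log2 change was 1.79 to 3.23. S100A9, a calcium-binding alarmin subunit gene, rose 1.62-fold (adjusted p = 0.015). The S100A9 call was lost with no filter (adjusted p = 0.10) or with no variance trend (0.15). It was also lost without control array 2 (log2 change 0.42). PPL and TGM1, given above, are members of this list too, and SCEL, named after its value was seen, fell 1.40-fold (adjusted p = 0.030). IVL, which encodes involucrin and was also chosen after its values were seen, was called present on no array and did not pass (adjusted p = 0.33).

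Among 14 mesenchymal genes that OVOL, grainyhead-like or KLF4 factors are known to repress, 10 were tested, 1 rose, 2 fell and 7 did not pass (median log2 change -0.04), with 30% called beside 19.4% of all genes. Of those tested, 2 reached the filter through their knockdown arrays alone, neither of them past the threshold. The receptor gene TGFBR2 fell 1.58-fold (adjusted p = 0.0016), with means of 6262 ± 223 in control and 3956 ± 197 in knockdown cells (SD, n = 2 each), and TWIST1, which drives epithelial-mesenchymal transition, fell 1.90-fold (adjusted p = 0.0034). Both missed the threshold with no variance trend (0.062 and 0.055). The ligand gene TGFB2 rose 1.59-fold (adjusted p = 0.0070), a call lost without control array 1 (0.072), with no filter (0.057) or with no variance trend (0.11). CD44 did not pass (log2 change -0.32, adjusted p = 0.063), and passed without knockdown array 2 (0.012).

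**Figure D4:**
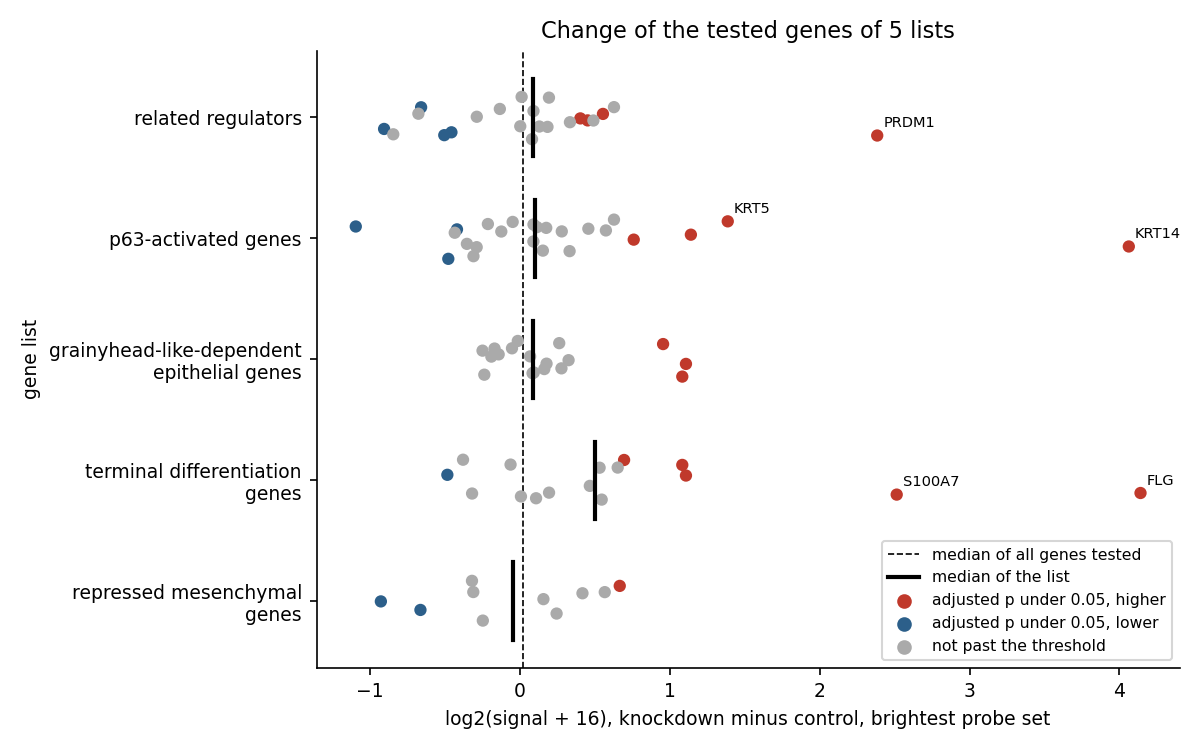
Log2 change (knockdown minus control, brightest probe set) of the tested genes of 5 lists, with 1 related regulator not shown, red for calls higher, blue for calls lower and grey for genes not past the threshold. Black bars are list medians over all tested genes, from -0.04 to 0.50, and the dashed line is the median of all genes tested, 0.02.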

How the data were processed

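Per the submitters' processing notes the authors used MAS5, with no version given, and deposited a signal per probe set and array, an intensity on a linear scale scaled to a trimmed mean near 500. The detection p-value and call were deposited by the authors beside it and taken as given. The authors' deposited log2 columns hold the log2 signal centred per probe set on its median, as a recomputation showed for all 54675 probe sets to within 1e-05. The second deposited table held the same values. The genome build of the alignments is not given in the sources used here.

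The test values were log2(signal + 16), not scaled again, which understates changes at low signal. Probe sets other than controls with a mean signal at or above the median (27307 of 54613) were tested with limma 3.58.1 in R 4.3.3 (lmFit, eBayes with a mean-variance trend, two-sided, 2 residual and 8.71 prior degrees of freedom), with Benjamini-Hochberg adjustment over all of them and a threshold of 0.05. The fit was tested on simulated data. Genes were named through the Entrez number with the gene table of GRCh38.p14 (39614 probe sets), and members by the deposited symbol. Promoters are from RefSeq. All members are named, with SPINT1 and up to 4 tested genes per list, ranked by the size of the moderated statistic whatever their call, of which 1 is not reported here. Members and lists were chosen with earlier results of these data known. Folds were taken from log2(signal + 16). Where 1 group has no present call the signals were used as read, except for ZNF750, whose control values were raised to the dimmest present call. Other settings were the pseudocount, the filter, scaling between arrays, the variance trend, a replicate block, probe set averaging and leaving out each array.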

Additional observations from a re-analysis of the deposited data

How the results depend on the processing

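The KLF4 call on its brightest probe set held under every setting tried (adjusted p at most 0.021), and those of GRHL1, GRHL2 and the dimmer KLF4 probe set held under both other pseudocounts, each scaling and the replicate block. All probe sets called numbered 4272, against 2211 with no filter, 1491 without the variance trend and 2163 to 4719 without single arrays. Member probe sets called numbered 4, against 1 without the variance trend (KLF4) and 2 to 5 without single arrays. Related regulators called numbered 9, against 4 with no filter, 4 without the variance trend, 5 with the mean over a gene's tested probe sets and 3 to 9 without single arrays. The p63-activated genes called numbered 7, against 3 without the variance trend and 5 to 12 without single arrays. Grainyhead-dependent genes called numbered 3, against 1 without the variance trend and 2 to 4 without single arrays. Terminal differentiation genes called numbered 6, against 3 with no filter, 3 without the variance trend and 4 to 6 without single arrays. Repressed mesenchymal genes called numbered 3, against 5 with quantile normalization, 0 without the variance trend (limma) and 2 to 5 without single arrays. The cause of these shifts was not tested. Signs turned, with no call on the turned side, for TP63 209863_s_at (0.069 without knockdown array 2), TP63 211194_s_at (0.27 without knockdown array 2, from -0.57 without knockdown array 1), TP63 211834_s_at (-0.057 without control array 1), ELF3 229842_at (-0.023 without knockdown array 1) and BNC1 206581_at (0.041 without control array 2). Without single arrays these ranged from -0.12 to 0.069, -0.57 to 0.27, -0.057 to 0.82, -0.023 to 0.088 and -0.33 to 0.041, in that order. ELF3 229842_at also stood at -0.039 with arrays centred over all probe sets, a setting chosen after seeing the data, as was a filter on the mean log2 value (4244 calls).

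The replicate number as a block gave 4581 calls over all probe sets and 4 member calls, the same split of 2 higher and 2 lower, and moved no list's count past 1.5 times. Deviations of same-numbered arrays correlated at r = -0.02 across probe sets, and the titles carry Ex1 and Ex2 in both groups without saying whether these mark shared experiments, so the arrays are not shown to be paired. SPINT1 stayed between -3.27 and -2.30 without single arrays. Signals near background limit SOX2, GRHL3 and the dim TP63 probe sets.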
